A study of Mus musculus with 24 samples.

Results

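RRBS of infant brown adipose tissue (BAT) held 621 MspI fragments that sat at intermediate methylation with little spread between litters, among 65535 fragments in the table analysed here. RRBS cuts DNA with MspI at CCGG, converts unmethylated cytosines with bisulfite, and reads each CpG as methylated where its cytosine is kept and as not methylated where it is lost. The level is the share of a fragment's CpG calls in 1 library that were methylated. A fragment was selected on the VEH libraries, where at least 10 of 12 libraries had 50 or more calls, the mean level of those libraries lay from 35% to 65%, and their SD was at most 5 percentage points. These 621 fragments are called stable half-methylated fragments, or members. Their VEH level and VEH spread chose them and are given as a description, with no test.

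Each of the 24 libraries was a pool of BAT from female C57BL/6J littermates at PND 12, so that litters were the replicates. The dams were gavaged from mid-gestation into the first postnatal week with olive oil (VEH, 12 libraries) or with DDT, as its o,p' and p,p' isomers together (DDT, 12 libraries). Total CpG calls ran from 8371958 to 13768991 in VEH and from 9895508 to 14124652 in DDT. Methylation calls hold no expression, so the tissue could not be checked against marker transcripts. The table covered chromosomes 1 and 2 and part of 3 (GRCm38). The remaining chromosomes were not analysed here. DDT replicates 4 and 12 had few calls on the members and stand apart from the other libraries, so results that rest on them are given with and without them.

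In mammals most CpGs are methylated on both alleles, while CpG islands at promoters are mostly unmethylated. A level near the middle can come from imprinted regions, where 1 parental allele is methylated, from genes methylated in some of a tissue's cells, or from a fragment whose CpGs differ from each other. In a pool of tissue these cannot be told apart from the summed calls of a fragment.

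The sequences below show the kinds of fragment that met the rule, read from the RefSeq GRCm38 genome on the plus strand, 5′ to 3′, from the first base after the MspI cut, with each CpG in capitals. The first set was the 3 members assigned to genes of an imprinted list, which was written from general knowledge. It is shown because imprinting can give a stable intermediate level, and whether these genes are imprinted in BAT was not tested. The members were Mcts2 at chr2:152686813-152686853 and 2 members of Phf17 (Jade1) at chr3:41497739-41497785 and chr3:41555589-41555718.
Mcts2: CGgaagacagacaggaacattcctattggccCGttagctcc
Phf17, first: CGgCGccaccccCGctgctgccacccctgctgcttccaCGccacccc
Phf17, second: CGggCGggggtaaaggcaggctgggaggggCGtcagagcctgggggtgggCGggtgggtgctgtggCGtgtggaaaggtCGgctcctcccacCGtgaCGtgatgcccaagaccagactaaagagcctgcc
The next set was the 3 members with the lowest VEH spread, at chr2:61520247-61520287, chr1:34666750-34666798 and chr2:91274961-91275008, shown because each is short and has 2 CpGs, the first of them in the MspI site itself.
Tank: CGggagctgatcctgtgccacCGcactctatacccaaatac
1700101I19Rik: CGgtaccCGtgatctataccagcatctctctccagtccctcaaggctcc
Arfgap2: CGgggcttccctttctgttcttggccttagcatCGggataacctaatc
The members with the smallest p between DDT and VEH lay at chr1:72006178-72006218 and chr3:37614391-37614464.
Tmem169: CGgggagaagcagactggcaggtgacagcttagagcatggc
Spry1: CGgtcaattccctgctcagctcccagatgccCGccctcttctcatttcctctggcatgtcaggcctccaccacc
Of the 5 members densest in CpGs, 4 lay at chr2:37793319-37793364, chr3:5860668-5860700, chr1:55362929-55363014 and chr3:82876160-82876224, shown because they differ from the short sparse fragments that make up most members.
Crb2: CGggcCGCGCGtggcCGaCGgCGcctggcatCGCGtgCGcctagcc
AC137844.2: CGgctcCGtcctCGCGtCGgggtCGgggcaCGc
Boll: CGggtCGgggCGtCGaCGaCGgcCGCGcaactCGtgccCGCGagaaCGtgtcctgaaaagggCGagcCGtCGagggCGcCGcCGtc
Rbm46: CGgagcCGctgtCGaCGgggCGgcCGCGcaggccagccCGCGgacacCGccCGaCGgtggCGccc

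Of the 65535 fragments, 15960 had enough calls in VEH (the measured fragments), and 1115 of these had a mean level from 35% to 65%. The SD ceiling kept 621 of the 1115, and 494 were more variable. The members had a median VEH level of 53.42% and a median SD of 3.182 points, and 271 of them (43.64%) lay from 50% to 60%. They were assigned by the authors to 496 genes, with 189 members on chromosome 1, 280 on chromosome 2 and 152 on chromosome 3. Members lay outside CpG islands and their flanks in 91.95% of cases, against 58.81% of the measured fragments and 95.34% of the more variable fragments at the same level. In GENCODE M21, 39.29% were intergenic, 31.56% intronic and 21.90% in coding exons, and 3.382% overlapped a UTR, against 21.23% of the measured fragments. RepeatMasker bases, in lower case in RefSeq, made up over 50% of 140 members (22.54%), against 11.16% of the measured fragments. After C-to-T conversion, the first 30 bases of an end occurred at more than 1 place of the genome for 139 members (22.38%), against 11.74% of measured fragments. The median level was 53.4% in the 482 members found at 1 place and 53.6% in the 139 others.

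The members differed from the more variable fragments at the same level in length and CpG number, which the rule did not use. Fragments of at most 50 bp, the read length of the study, made up 475 of 621 members (76.49%), against 45.52% of the measured fragments and 53.85% of the more variable ones. Short fragments with exactly 2 CpGs made up 326 members (52.50%), against 10.23% of measured fragments and 14.37% of the more variable ones. The other members were 90 short fragments with 1 CpG, 59 short fragments with 3 or more, and 146 fragments longer than a read, 49 of them with 5 or more CpGs. Of the short fragments with 2 CpGs at a level from 35% to 65%, 326 of 397 (82.1%) met the SD ceiling, against 295 of 718 (41.1%) of all others at that level. Their depth was also higher, with a median of 383 calls against 242, and the part of depth in this was not tested. This split by length and CpG number was made after the values were seen.

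The share of members among fragments with 2 CpGs outside islands dropped between 49 and 50 bp. At 48 bp 30 of 91 fragments were members, at 49 bp 22 of 75, at 50 bp 1 of 37, at 51 bp 1 of 54 and at 52 bp 0 of 82. Over 47 to 49 bp the median VEH level was 60.9% with 64 of 220 fragments as members (29.1%), and over 50 to 52 bp it was 90.4% with 2 of 173 (1.16%). Over the same lengths the median level also rose, from 59.97% to 95.75% with 1 CpG and from 68.95% to 82.78% with 3 CpGs. At single lengths, where fragments were few (19 with 1 CpG and 27 with 3 CpGs at 50 bp), the rise was less regular. With 1 CpG the median level rose from 41.4% at 48 bp to 78.6% at 49 bp and 86.8% at 50 bp, and with 3 CpGs it was 67.6% at 49 bp, 13.5% at 50 bp and 86.0% at 51 bp. Members made up 1.56% of the fragments with 1 CpG over 47 to 49 bp and 2.56% over 50 to 52 bp. A read of 50 bases from the start of a 49 bp fragment ends on the CpG cytosine of the next MspI site, and in longer fragments it ends before that cytosine. During library preparation the ends that MspI leaves are filled in with added, unmethylated cytosines, which a read meets only at the far end of its fragment. The deposited calls are summed over the CpGs of a fragment, so the part of such cytosines in these levels was not tested.

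**Figure D1:**
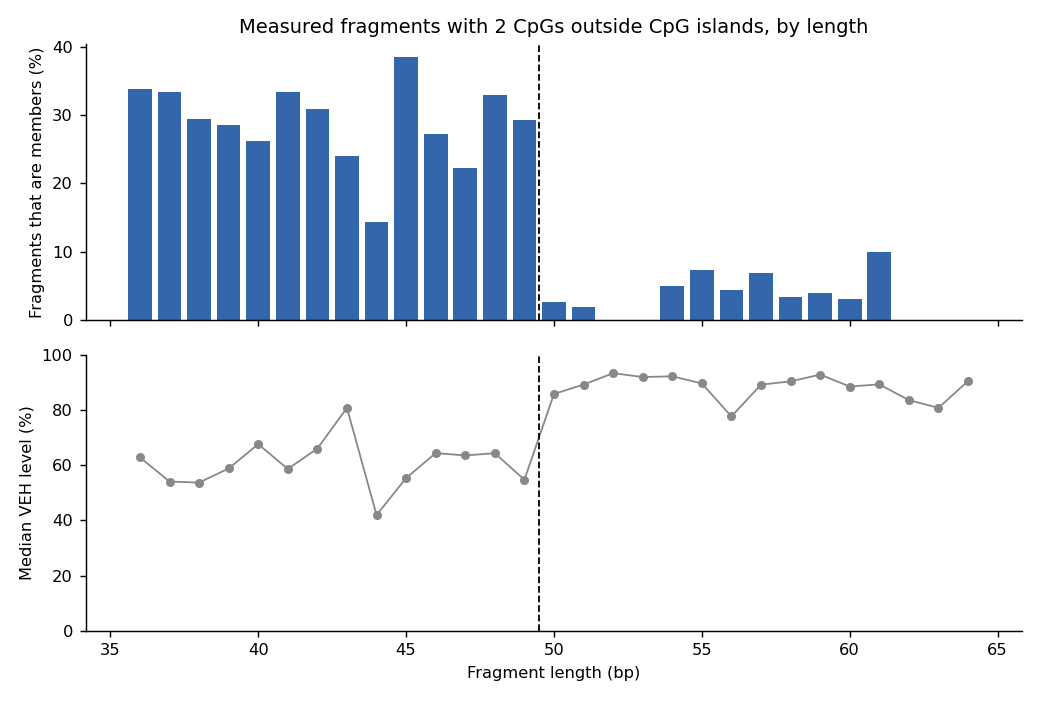
Share of members (top, % of fragments) and median VEH level (bottom, %) of measured fragments with 2 CpGs outside CpG islands, by fragment length in bp. The dashed line lies between 49 and 50 bp, where the share of members dropped from 29.3% at 49 bp to 2.70% at 50 bp and the median level rose from 54.7% to 85.8%.

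The level of a short fragment in methylated surroundings went with its number of CpGs. Short fragments were taken whose nearest measured fragment longer than a read, within 2000 bp, was over 80% methylated. With 1 CpG the fullest 5-point bin of VEH level was 10% to 15% (34 of 119 fragments), and with 2 CpGs it was 50% to 55% (20 of 114). It lay at 65% to 70% with 3 CpGs (9 of 43) and at 75% to 80% with 4 CpGs (6 of 25). The medians were 18.95%, 61.98%, 73.46% and 81.64%. In fragments of 51 to 100 bp in the same surroundings the medians were 95.87%, 92.36%, 92.80% and 93.73%. Of the 114 short fragments with 2 CpGs, 52 were members. By the place of the inner CpG, the median of the short members with 2 CpGs was 54.40% with that CpG within 10 bases of the start, 54.10% at 11 to 25 bases and 54.49% farther in. The rule bounded the level of these members, so their medians cannot show whether the place of the CpG bears on the level.

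**Figure D2:**
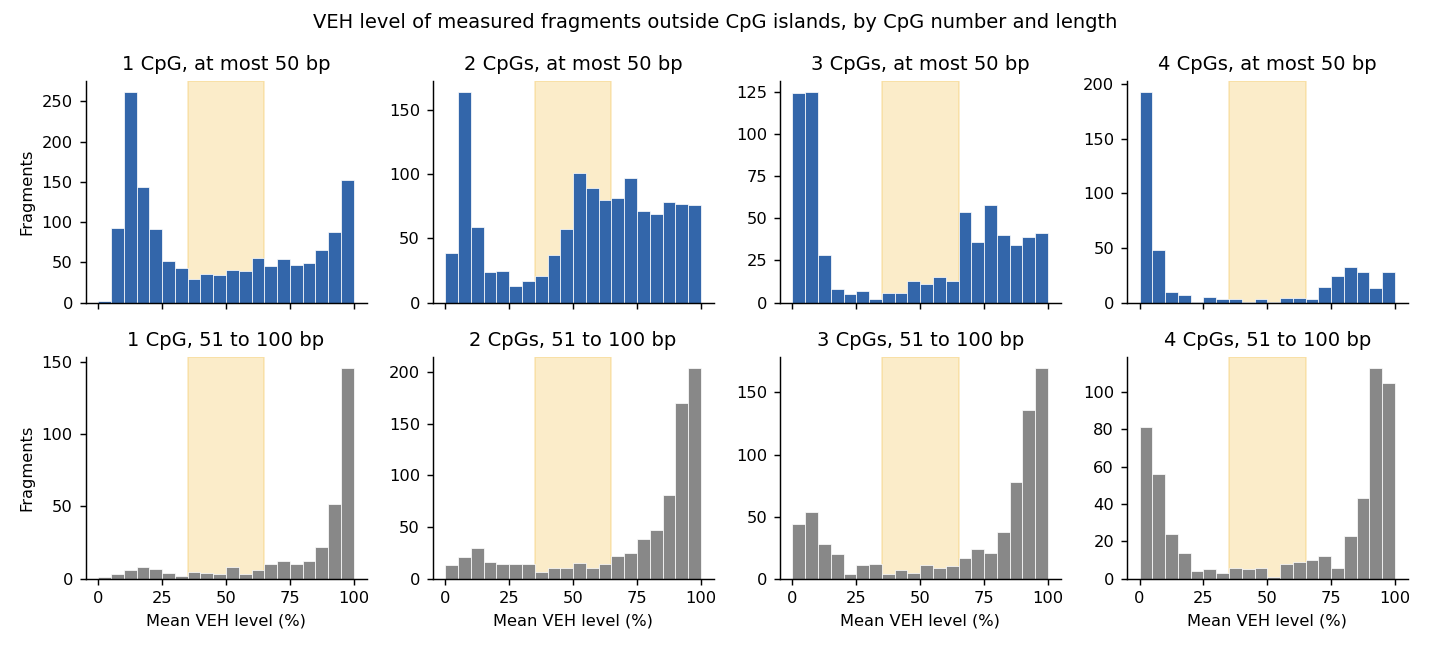
Number of measured fragments outside CpG islands by mean VEH level (%, bins of 5 points), for 1 to 4 CpGs and for lengths of at most 50 bp (blue) and 51 to 100 bp (grey), with the 35% to 65% window shaded. Short fragments with 2 CpGs rise at 50% to 55%, where the bin holds 101 fragments, and the longer ones pile up near 100%.

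The flanks of the members differed between the kinds of fragment. The nearest measured fragments within 2000 bp of short members with 2 CpGs had a median VEH level of 83.62%, and 71 of 134 (52.99%) were over 80%. The flanks of members longer than a read had a median of 54.89%, with 46 of 130 (35.38%) from 35% to 65% and 25 (19.23%) over 80%. These were near the flanks of the more variable fragments of any length at the same level. There the median was 55.54%, with 91 of 307 (29.64%) from 35% to 65% and 64 (20.85%) over 80%. Of all members, 549 stood alone among the measured fragments, 60 stood in 30 pairs, and 3 runs held 3, 4 and 5 members.

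The spread between litters, which the rule kept low in every member, lay on both sides of counting error in the short 2-CpG members. The variance of the VEH levels over the variance expected from binomial counting of the calls had a median of 1.022 in these 326 members, and 160 of them (49.08%) were under 1. It was 1.84 in members longer than a read and 1.913 over all measured fragments, of which 13.28% were under 1. The ratio contains the VEH spread that the rule used. Among measured 2-CpG fragments outside islands, members or not, its median was 1.656 at up to 50 bp and 1.689 at 51 to 100 bp. In the short 2-CpG members the ratio ran from 0.1444 to 9.699. Reads were amplified and carried no molecular identifiers, so calls need not be independent counts. Binomial counting error is therefore a reference here and no lower limit.

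The 5 members with the lowest spread were all short. The Tank fragment, named for an adaptor of TRAF signalling whose start was the nearest, had 52.7% in the lowest VEH library, a median of 53.6% and 55.4% in the highest, an SD of 0.736 points (n = 12) at 436 to 928 calls. The DDT libraries of this fragment ran from 52.2% to 55.8% (n = 11), so both groups covered the same range. The fragment of 1700101I19Rik ran from 51.7% to 54.1% in VEH (SD 0.785, n = 12). Its DDT libraries ran from 34.8%, in DDT replicate 12, to 55.4%, and without that library from 51.3%. The Arfgap2 fragment, in an intron of a GTPase-activating protein of COPI vesicles, ran from 52.6% to 55.9% in VEH (SD 0.878) and from 52.1% to 58.6% in DDT (n = 11). Gpr158, which encodes an orphan G protein-coupled receptor, had 3 CpGs in a 34 bp intronic fragment at 62.8% to 65.7% in VEH. In DDT it ran from 63.5% to 72.7% (n = 12), the highest being DDT replicate 12, and to 66.6% without DDT replicates 4 and 12. The Armc1 fragment, 100% repeat and found at 71 places by its ends, ran from 56.3% to 59.9% in VEH. In DDT its median was 57.6% and its highest value 59.65% (n = 10), and the lowest DDT library lay under the lowest VEH library. At 10 calls or more its difference was -1.95 points (SE 0.882, adjusted p = 0.869, ANOVA). These levels lay near 53% to 58% with 2 CpGs and at 64.3% with 3.

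At the SD ceiling the last members inside were fragments of Fam125b (62.30%, SD 4.99694), Rwdd3 (40.84%, SD 4.99775) and AC137844.2 (49.84%, SD 4.99999). Just outside lay fragments of Tbx15 (36.42%, SD 5.01173), Pkp4 (48.45%, SD 5.01305) and Agap1 (52.94%, SD 5.01387). The AC137844.2 fragment, 33 bp with 7 CpGs in an island core, was also by far the deepest, with 220530 to 416326 calls in VEH libraries, where no measured fragment outside the members had a median over 18328. Its variance ratio was 2601, with VEH libraries from 35.7% to 54.6%. Its ends occurred at 1 place in GRCm38, and whether copies that are missing from the assembly feed it was not tested.

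The imprinted list, written from general knowledge, held 13 genes, with 87 measured fragments and 3 members (3.448%), against 3.891% of all measured fragments. Imprinted genes are expressed from 1 parental allele, and many, though not all, have a control region methylated on 1 allele. Whether the 3 members are methylated on 1 allele was not tested. The Mcts2 fragment lay in an island core with its centre at -202 bp from the start of Mcts2, a retrogene inside an intron of H13, which encodes signal peptide peptidase. It ran from 44.5% to 56.8% in VEH with a median of 51.8% (SD 3.82, n = 12) and from 41.9% to 56.8% in DDT with a median of 49.6% (n = 12). The ranges overlapped throughout. A fragment next to it with 15 CpGs and 125 bp was at 68.72% with an SD of 8.798 and was no member. Since the Mcts2 fragment is 41 bp with 2 CpGs, its own shape is the common one among the members. The second Phf17 fragment (130 bp, 8 CpGs) had its centre at -78 bp from the start of Jade1, which encodes a PHD finger protein of the HBO1 acetyltransferase complex. It ran from 42.7% to 53.7% in VEH with a median of 48.6% (SD 2.96, n = 12), and from 44.9% to 54.7% in the DDT libraries other than DDT replicates 4 and 12. DDT replicate 4 stood apart there at 99.1%. The first Phf17 fragment, far upstream (-57969 bp), was at 59.6% to 64.2% in VEH (SD 1.21), with 3005 to 8517 calls.

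Members in island cores numbered 21 in 14 genes, 9 of which held a single one. Their median was 45.8%, where the median of the 5721 measured island core fragments was 3.55%. The rule had bounded the level of the members, so this contrast was set by the selection. The longest run of members of any kind was in Nr4a2, which encodes an orphan nuclear receptor needed for dopaminergic neurons, where 5 members in coding exons spanned 1750 bp (chr2:57110141-57111890) and held 28 CpGs. Their VEH means were 47.2%, 38.4%, 39.0%, 36.7% and 46.8%, and their SDs ran from 2.07 to 4.85 points (n = 12). Fragments within 2000 bp ran from 33.75% to 47.16%. Of the 6 measured there, 5 were these members, whose level the rule had bounded, and the other was at 33.75%. In Crb2, which encodes a Crumbs cell polarity protein, 3 members in a coding exon spanned 524 bp at 48.97%, 47.3% and 47.02%, with 10, 12 and 8 CpGs. The fourth Crb2 member was a short 2-CpG fragment at 63.9%. At Mir219-2, a precursor of a microRNA of oligodendrocytes, 4 members over 738 bp had 52.99%, 44.6%, 45.8% and 47.6%, and the other measured fragments within 2000 bp lay from 28.57% to 75.41%.

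**Figure D3:**
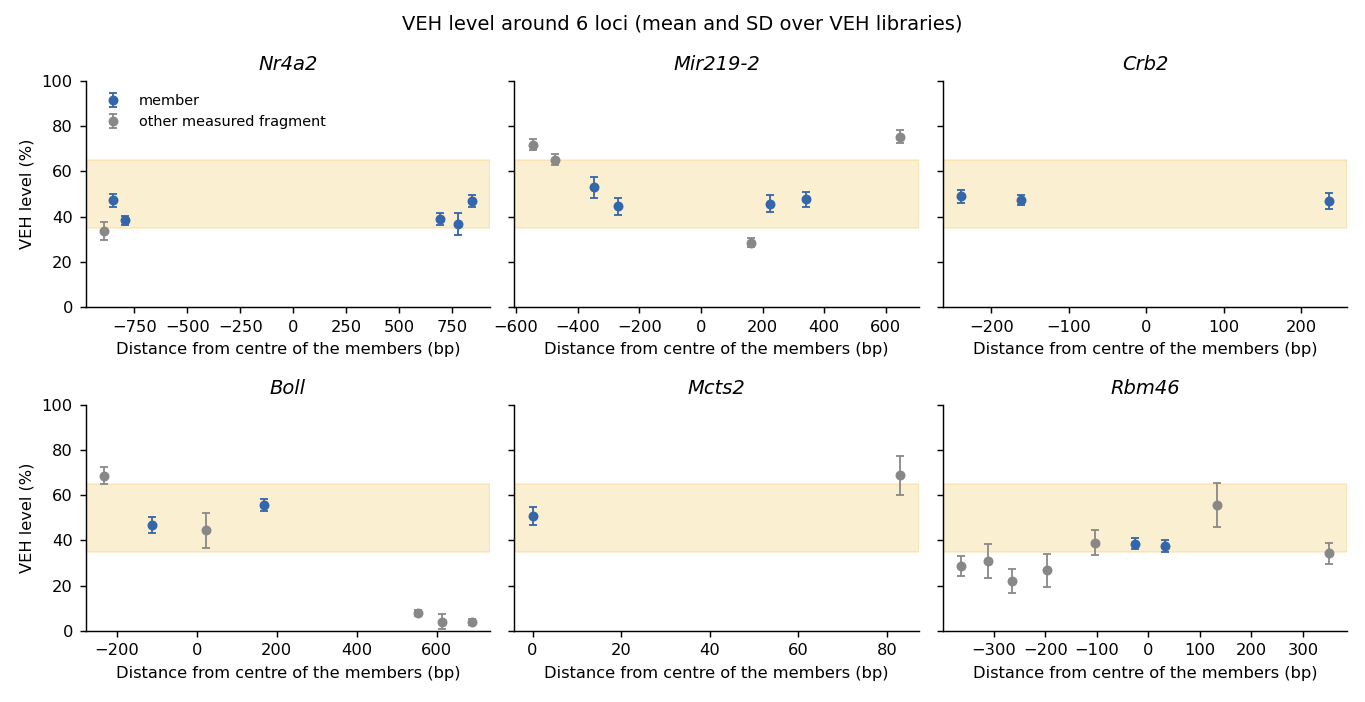
VEH level (mean and SD over the VEH libraries, %) of measured fragments within 2000 bp of the members at 6 loci, against distance in bp from the centre of the members. Members are blue and other measured fragments grey, and the shaded band is the 35% to 65% window. At Boll the level falls below 20% to 1 side of the members. Around Nr4a2 the only measured fragment that is no member is at 33.75%, and around Crb2 all 3 measured fragments are members.

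Boll and Rbm46 encode germ cell RNA-binding proteins, and each held 2 island core members within 1 kb of its start. In Boll they were at 46.7% and 55.5% with 19 and 18 CpGs, and 3 fragments beyond them were at 3.948% to 7.910%. In Rbm46 they were at 38.5% and 37.5% with 13 and 7 CpGs, in a stretch that ran from 21.94% to 55.65% within 2000 bp. Between 27 pairs of abutting members the VEH means differed by a median of 9.18 points, and 9 pairs lay within 5 points. Boll and Mir219-2 were picked for naming after their values were seen.

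The list of developmental transcription factors held 16 members among 446 measured fragments (3.587%), in 10 of 34 measured genes, near the share over all fragments. Hoxd4 had the lowest spread of all members longer than a read, at 44.8% to 49.3% in VEH (median 47.6%, SD 1.25, n = 12) for 7 CpGs in a coding exon. Lmx1b, which encodes a LIM homeodomain factor, had 3 intronic members at 35.37%, 37.51% and 36.03%. Single members were assigned to Hoxd3 (62.4%), Hoxd13 (61.4%), Evx2 (37.7%), Meis2 (48.1%), Nkx2-4 (50.8%), Dlx2 (56.5%) and Gbx2 (54.9%, by a RefSeq synonym). Of these, the Hoxd3 and Meis2 members lay in introns and the others in intergenic sequence. The nearest protein-coding starts to the Hoxd13 and Evx2 members were those of Lnpk (118002 bp away) and Mtx2 (174394 bp away). The adipocyte list gave 3 members among 110 measured fragments (2.727%). They were assigned to Cebpb, an early adipogenic transcription factor (62.1%), Bmp7, a signal for brown fat (64.04%), and Rxrg, which encodes retinoid X receptor gamma (43.8%). The Cebpb and Rxrg members lay outside the gene itself. The genes with most members were Cdh22, Mki67ip and Nr4a2 with 5 each, then Col5a1 and Crb2 with 4. The Mki67ip members were spread upstream of the gene, 3 in intergenic sequence and 2 in introns of other transcripts, at 44.5% to 61.6%. In order of position, their ends occurred at 1, 251, 7, 478 and 1 places, the 7 belonging to the member at 61.6%. The 5 Cdh22 members, 4 of them in this cadherin gene and 1 upstream of it, ran from 40.7% to 58.9%. The 4 Col5a1 members each had 1 CpG and ran from 45.1% to 62.1%, with 3 in introns of this collagen gene and 1 in intergenic sequence.

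The DDT libraries were not used by the rule and show whether members held their level in other litters. At 50 calls or more in at least 10 DDT libraries, 568 members could be read, 516 of these 568 had a DDT mean from 35% to 65%, and 261 also kept an SD of at most 5 points. Of the more variable fragments at the same VEH level, 389 could be read, and 331 of these 389 had a DDT mean in that window. The VEH and DDT means correlated over the 568 members (Pearson's r = 0.9508, across fragments, which share libraries and are not replicates), and differed by a median of 1.658 points. By kind, 191 of 326 short 2-CpG members met the whole rule in DDT and 26 of 146 longer members did. Without DDT replicates 4 and 12, with 10 libraries still required, 411 members met it, and with all DDT libraries but only 8 required, 291 did. With both changes 453 of 621 members met it, among them 290 of 326 short 2-CpG members and 76 of 146 longer ones, and 65 of the 494 more variable fragments did.

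DDT replicates 4 and 12 stood apart on the members. The median member had 8 calls in DDT replicate 4 and 55 in DDT replicate 12, against 234 to 447 in the other DDT libraries and 256 to 514 in VEH. Their total calls over all fragments were not low, at 12788050 in DDT replicate 4 and 13550104 in DDT replicate 12. Averaged over members, the VEH libraries had a level of 52.3% ± 0.680 (SD, n = 12). The DDT libraries had 51.2% ± 2.36 (SD, n = 12), with 44.41% in DDT replicate 4 and 49.70% in DDT replicate 12. Without both it was 52.1% ± 0.790 (SD, n = 10). Over short 2-CpG members, DDT replicate 4 was at 50.57% where VEH ran from 52.98% to 54.65%. Over longer members it was at 36.40% where VEH ran from 47.56% to 50.73%.

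**Figure D4:**
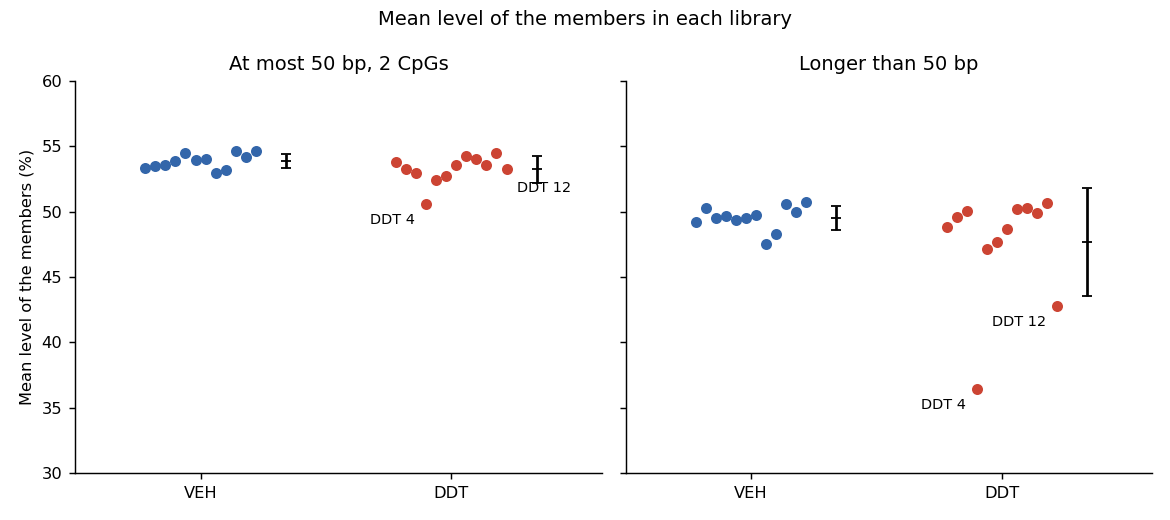
Mean level (%) of the short 2-CpG members (left) and of the members longer than 50 bp (right) in each library, with the mean and SD of each group beside the points. DDT replicates 4 and 12 lie below the others for the longer members, and DDT replicate 4 alone does for the short ones.

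At fragments with 50 calls or more, DDT replicate 4 was not only lower but split. Of 233 such members, 69 were under 10% and 47 over 90%, together 49.8%, at a median of 280 calls. In the 10 other DDT libraries apart from DDT replicate 12, 1 member in all was this extreme, and DDT replicate 12 had 10 of 328 (3.05%). No VEH library had one, which the rule favours. Among members longer than a read, 42 of 70 were extreme in DDT replicate 4 and 11 (15.7%) lay from 35% to 65%. Among short 2-CpG members, 41 of 102 were extreme (40.2%) and 50 lay from 35% to 65%, 41 of them from 50% to 60%. The Crb2 fragment of 109 bp was at 0.693% in DDT replicate 4, whereas the abutting one of 46 bp, 88.9% there, had its highest DDT value. In Nr4a2 the DDT minimum of the third member was 0.790%, also in DDT replicate 4, where the other DDT libraries apart from DDT replicate 12 ran from 37.1% to 45.9%. The number of DNA molecules behind a library is not in the files, and its part in this split was not tested.

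**Figure D5:**
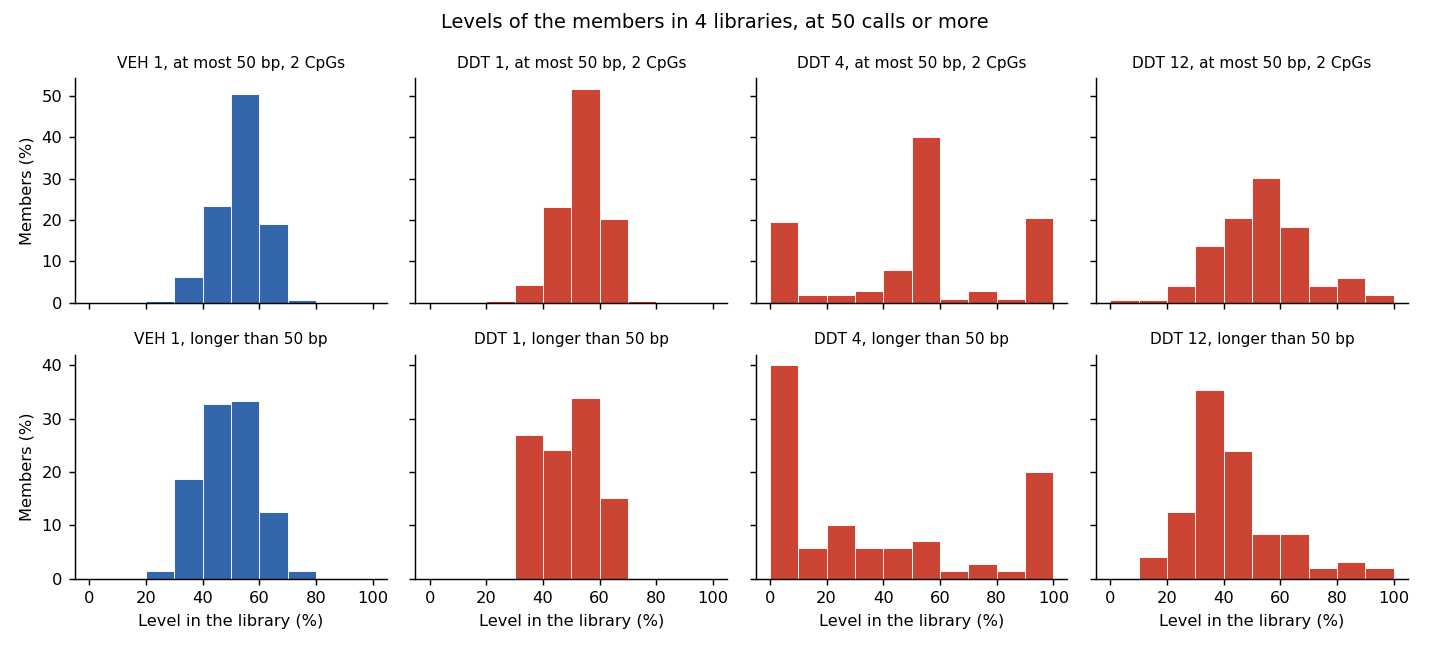
Share of members (%) by level in the library (%, bins of 10 points), at 50 calls or more, in VEH replicate 1 and DDT replicates 1, 4 and 12, for short 2-CpG members (top) and members longer than 50 bp (bottom). In DDT replicate 4 the longer members pile up at 0% to 10% (28 of 70) and 90% to 100% (14), and the short 2-CpG members form 3 groups, at 0% to 10% (20 of 102), 50% to 60% (41) and 90% to 100% (21).

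DDT was compared with VEH at each fragment with the ANOVA F test and Benjamini-Hochberg adjustment over 20225 tested fragments, which asks whether the exposure moved methylation. All 621 members were tested, on levels from at least 10 calls. No member had an adjusted p under 0.05 (0 of 621), as over all tested fragments (0 of 20225, 0%), and the smallest adjusted p was 0.869. The count was also 0 with limma and with quasi-binomial regression. At an unadjusted p under 0.05 there were 23 members, or 3.7%, near the background of 4.18% over all tested fragments. The level was lower in DDT in 19 of the 23 and higher in 4. Over all tested fragments 593 (2.93%) were lower at this p and 252 higher. Without DDT replicates 4 and 12 there were 29 such members (4.67%), against 4.51% of all fragments then tested. Of the 29, 8 were higher in DDT, against 437 of 882 over all fragments (2.23% of those tested). The DDT minus VEH difference over members ran from -10.9 to 8.2 points with a median standard error of 2.14. Its median was -0.511 points, beside -0.163 over all tested fragments and -2.51 over the more variable fragments at the same VEH level. Without DDT replicates 4 and 12 these medians were -0.233, 0.0183 and -1.14 points. The difference was within 5 points in 562 members (90.5%), and without DDT replicates 4 and 12 in 609. The rule bounded the VEH spread of the members, so their p-values are not on a par with those of other fragments.

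The 5 members with the smallest p did not pass the adjustment. The Tmem169 member, which lies in an intron of 4930556G22Rik and has 1 CpG, had DDT levels of 37.9% at the lowest, 50.9% at the median and 63.6% at the highest in the libraries with 50 calls or more (n = 10). In VEH it had 52.6%, 60.9% and 69.6% (n = 12), so the groups overlapped. At 10 calls or more, 10 of 11 DDT libraries lay below the VEH median. The difference at that minimum was -10.9 points (SE 3.32, p = 0.00346, adjusted p = 0.869, ANOVA), and -8.54 without DDT replicates 4 and 12. The member upstream of Spry1, an inhibitor of receptor tyrosine kinase signalling, ran from 28.6% to 61.9% in DDT (n = 11) and from 53.4% to 66.7% in VEH (n = 12), a difference of -9.05 points (SE 3.32, p = 0.0125, adjusted p = 0.869, ANOVA). The lowest value was DDT replicate 12, and without DDT replicates 4 and 12 the DDT range started at 40.2% and the difference was -6.79 points. Members of Rfx8, 9830001H06Rik and 3110009E18Rik differed by -3.89, -2.71 and -6.77 points, with the same adjusted p in the ANOVA. All 5 were lower in DDT, and in each the group ranges overlapped.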

How the data were processed

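The authors digested DNA with MspI, made RRBS libraries, trimmed single-end reads of 50 bp with Scythe and Sickle, aligned them to GRCm38 with Bismark (0.15.0 in the submitters' processing notes), and deposited raw counts of CpG calls, methylated and not, per fragment and library, with a gene and island annotation. Their program for assigning fragments to genes was not checked; gene positions here came from GENCODE M21. No column belonged to samples outside the 24. The members and gene lists were chosen with earlier results of these data known.

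From the counts, levels were taken at a minimum of 50 calls (rule) or 10 calls in at least 8 libraries per group (test). All 24 libraries, at postnatal day 12, entered the ANOVA. Alternatives were other call minimums, limma on log2((methylated + 1) / (not methylated + 1)), quasi-binomial regression, log2 total calls as a covariate, the replicate number as a block, and each library left out. Leaving out DDT replicates 4 and 12 together and requiring 8 DDT libraries for the rule were added after seeing the data. The ANOVA and the quasi-binomial regression were first checked on simulated calls, which enter no result here. The limma fit was not checked in this way. Between libraries of a group, the mean chi-square of a fragment was at least 1.83, so none agreed within sampling noise. Counting intervals cover counting error only.

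Fragments are named by the authors' gene. Named are members of imprinted and other listed genes, the 5 with the lowest VEH SD, smallest p, most calls and highest CpG density, the 5 genes with the most members (ties in alphabetical order) and 3 fragments on each side of the SD ceiling. Sequences are printed for 12 of these. The members of 1 gene are not reported here by name. R 4.3.3 (limma 3.58.1) and Python 3.11.15 were used, the latter with SciPy 1.17.1, pandas 2.3.3, NumPy 2.4.6 and matplotlib 3.10.9.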

Additional observations from a re-analysis of the deposited data

How the results depend on the processing

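The number of stable half-methylated fragments was 621 and ran from 429 (mean level from 40% to 60%) to 754 (SD ceiling of 6 points) under other settings, and from 603 to 663 with each VEH library left out, always within 1.5 times. The members that met the rule in DDT numbered 261, between 255 and 379 with each DDT library left out and 9 libraries required, 411 without DDT replicates 4 and 12, 291 with 8 libraries required, and 453 with both changes. No alternative gave a member an adjusted p under 0.05, which in all 24 single-library removals was 0. The 23 members at an unadjusted p under 0.05 became 8 with a level required in all 24 libraries, where only 267 members were tested and 4.24% of all fragments passed, and 6 with limma on the log2 ratio (0.966%, against 3.51% of all fragments), whose cause was not tested. With each library left out the lowest count was 15 (DDT replicate 3 removed, 2.42% against 4.23%) and the highest 38 (DDT replicate 11 removed, 6.12% against 5.38%). The median difference of -0.511 points ran from -0.685 to -0.407 with each library left out, and was -0.233 without DDT replicates 4 and 12 and -1.02 with a level required in all 24 libraries. Same-numbered VEH and DDT libraries did not deviate together (r from -0.180 to 0.199 over 10399 fragments, 1 of 12 best with its own number), so they share only a number. With the replicate number as a block, 0 members had an adjusted and 22 an unadjusted p under 0.05. At 50 calls a level near 50% has a wide counting error, and differences of a few points were not detectable in libraries with few calls on a member.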
